A study of Mus musculus with 6 samples.

Results

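The 6 messenger RNAs described here are encoded by mouse mitochondrial DNA and specify subunits of respiratory complexes III, IV and V. They are mt-Cytb (cytochrome b, of complex III), mt-Co1, mt-Co2 and mt-Co3 (the core subunits of cytochrome c oxidase, complex IV), and mt-Atp6 and mt-Atp8 (subunits of the membrane part of ATP synthase, complex V). They were chosen by gene symbol and not by a rule on their values, though with earlier results of these data known. All 6 were matched among the 54590 gene IDs of the count table. Complexes III and IV pass electrons from ubiquinol to oxygen and pump protons across the inner mitochondrial membrane, and ATP synthase uses the proton gradient to make ATP. Each of these complexes also has many nuclear-encoded subunits, so its assembly draws on both genomes. Mitochondrial genes have no introns. Long transcripts of each DNA strand are cut into mRNAs, mostly at the transfer RNAs that lie between them, and the stability of each mRNA then sets its own level.

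The RNA came from hippocampal microglia, the resident macrophages of the brain, of mice at 3 weeks after birth. The genotype of every library, controls included, was Tmem119-tdTomato+/-, a reporter that ties a red fluorescent protein to a microglial gene. The control group (Ctrl) had 3 libraries and the FGR group, whose mice were growth-restricted before birth per the series title, had 3, each made from total RNA of 3000 microglia. The labels do not tell how growth was restricted, the sex of the mice or whether each library is a different animal. The p-values therefore rest on the variation among these libraries alone, and that variation may be technical.

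The genes lie on the same strand of the mitochondrial genome (chromosome M of GRCm38, the mm10 build, GENCODE M21 annotation). mt-Co1 spans 5328 to 6872, mt-Co2 7013 to 7696, mt-Atp8 7766 to 7969, mt-Atp6 7927 to 8607 and mt-Co3 8607 to 9390, while mt-Cytb lies apart at 14145 to 15288. The ATP synthase genes are read from 1 bicistronic mRNA, and their coding sequences share 43 bases in different reading frames. The shared bases, shown in capitals, are the end of mt-Atp8 and the start of mt-Atp6. They are printed because a read inside them belongs to both genes.
mt-Atp8, all 204 bases: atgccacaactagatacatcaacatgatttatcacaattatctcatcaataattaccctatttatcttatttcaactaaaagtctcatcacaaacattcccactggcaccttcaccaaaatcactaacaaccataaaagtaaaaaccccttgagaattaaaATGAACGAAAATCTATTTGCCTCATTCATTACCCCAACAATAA
mt-Atp6, first 120 bases: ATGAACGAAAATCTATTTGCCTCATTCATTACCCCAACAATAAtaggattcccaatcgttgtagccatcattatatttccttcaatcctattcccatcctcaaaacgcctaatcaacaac

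The junction from mt-Atp6 to mt-Co3 has no transfer RNA, and the genes share 1 base, the last of the mt-Atp6 stop codon and the first of the mt-Co3 start codon (both codons in capitals).
mt-Atp6, last 30 bases: gtaagcctatatctacatgataatacaTAA
mt-Co3, first 30 bases: ATGacccaccaaactcatgcatatcacata

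The members also differ in how they end. The annotated ends of mt-Cytb and mt-Co3 stop 1 base past the last full codon, at a T that polyadenylation is known to complete to a stop codon, whereas mt-Co1 and mt-Co2 carry a full one (capitals mark the last codon or its part).
mt-Cytb, last 24 bases: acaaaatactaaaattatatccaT
mt-Co3, last 24 bases: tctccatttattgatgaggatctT
mt-Co1, last 24 bases: ccaacctatgtaaaagtaaaaTAA
mt-Co2, last 24 bases: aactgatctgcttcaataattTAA

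Library totals ran from 1553588 to 11364316 counts, with library 3 of each group the deepest. Within each group, libraries 1 and 2 nearly repeated one another. Over the 6 members the chi-square of their counts per feature was 4.02 in Ctrl and 9.32 in FGR, against 82.2 to 448 for the other 13 pairs of libraries. Over features of 20 to 99 counts it was 2.35 and 2.37, against 3.07 to 9.88. These near copies were therefore summed and counted as 1 sample, which leaves n = 2 samples in Ctrl and in FGR. The microglial identity of the RNA was only partly visible in the nuclear labels: 8 of 18 microglial marker genes had under 100 counts over all 6 libraries, with 3 counts each for C1qa and Tyrobp, while P2ry12 had 873 and Aif1 2166. The summed level of that list was 5599 to 5709 CPM (counts scaled to the library total) in Ctrl and 4953 to 5680 in FGR, of which Tgfbr1 held 4621 to 5401. The neuron list summed to 1201 to 1349 CPM in Ctrl and 1130 to 1320 in FGR. Of this, Gad2 held 455 to 813 and Slc17a7 363 to 678, while 3 of its 8 genes had under 100 counts over all 6 libraries. An astrocyte list summed to 319 to 566 CPM in Ctrl and 349 to 501 in FGR, and an endothelial list to 262 to 319 and 260 to 317. Lists for oligodendrocytes, border macrophages and blood cells lay lower. The part of other cell types in the values below was not tested, and in bulk RNA fewer cells of a type and less RNA per cell cannot be told apart.

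Together the 6 mRNAs held 1.299%, 1.336% and 1.03% of all counts in Ctrl libraries 1, 2 and 3 and 1.36%, 1.44% and 1.17% in FGR libraries 1, 2 and 3. The 95% Wilson intervals, which treat counts as independent and cover counting error only, were at most as wide as that of Ctrl library 2, 1.318% to 1.354%, and that of FGR library 2, 1.42% to 1.46%. By the chi-square values above, even near copies differed by more than independent counts would, so these intervals, here and below, may be too narrow. The shares followed the set of libraries: library 3 was the lowest of its group in both groups. Within the messenger RNAs of the mitochondrial genome, 13 in all, the members made up 50.9% to 54.7% of the counts in every library.

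Per length, mt-Co1 and mt-Cytb stood highest and mt-Atp8 lowest. Over the 4 samples the level in CPM of library totals per kb was 3583 ± 515 for mt-Co1 and 3491 ± 572 for mt-Cytb (SD, n = 4). It was 2064 ± 437 for mt-Atp6, 993 ± 141 for mt-Co2, 722 ± 98.9 for mt-Co3 and 413 ± 92.8 for mt-Atp8. The ranges of mt-Co1 (2997 to 4175) and mt-Cytb (2809 to 4084) overlapped, and mt-Cytb was the higher of them in 1 of the 4 samples, the sum of Ctrl libraries 1 and 2. Each of the other 4 steps in this order held in all 4 samples with no overlap of ranges. The order does not follow the order of the genes along the DNA: between mt-Co1 and mt-Co3, mt-Atp6 stood well above its neighbours mt-Co2, mt-Atp8 and mt-Co3. The other 7 mitochondrial mRNAs, all for complex I, lay between 175 ± 24.2 for mt-Nd3 and 2494 ± 250 for mt-Nd1, so the members held the 2 highest places of the 13 and the second lowest. mt-Nd6, the only mRNA of the opposite strand, stood at 1862 per kb, and the labels do not give the strand setting of the counting.

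**Figure D1:**
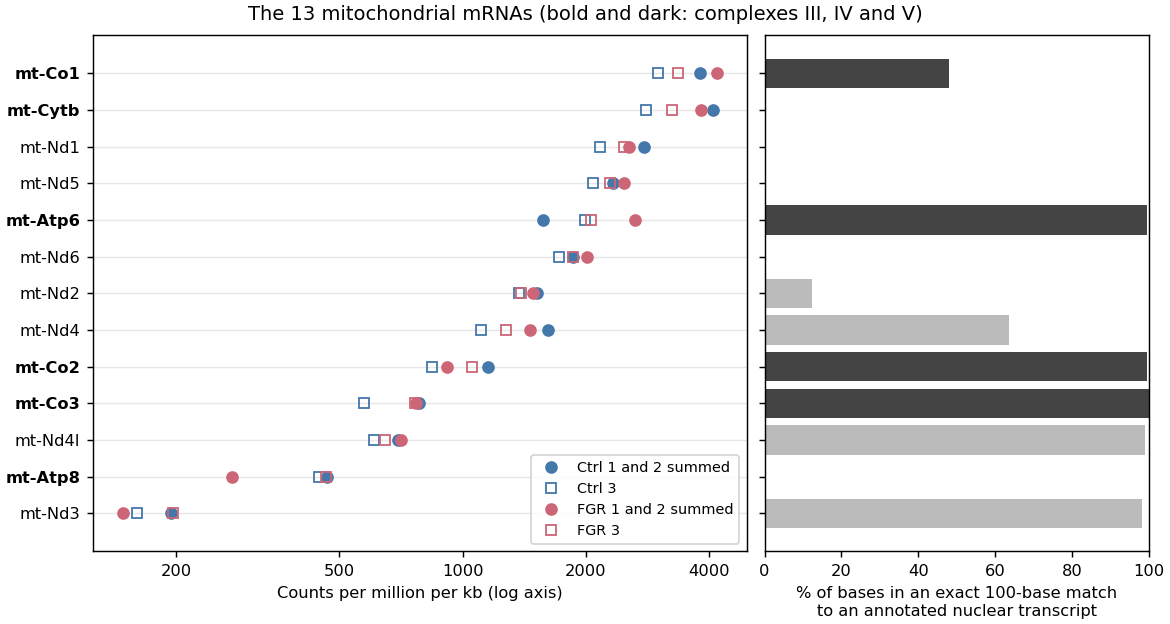
Left, the level of each of the 13 mitochondrial mRNAs in CPM of library totals per kb (log axis) in the 4 samples, with circles for summed libraries 1 and 2 and open squares for library 3, Ctrl in blue and FGR in red. Right, the share of each mRNA's bases that lie in an exact match of 100 bases to an annotated nuclear transcript. mt-Co1 and mt-Cytb lead, and in mt-Atp6 the circles lie outside the squares, at 1568 in Ctrl and 2631 in FGR.

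Several members have a near-identical copy in the nuclear genome, which bears on how levels between them can be read. A row of 7 annotated pseudogenes on the minus strand of chromosome 1 (GRCm38, 24611535 to 24616197) matched mt-Co2 over 681 bases, mt-Atp6 over 678 and mt-Co3 over 783, each at 100% identity, and the last 483 bases of mt-Co1 at 99.8%. A second copy, Gm13340 on chromosome 2 (22588103 to 22589647), matched all 1545 bases of mt-Co1 at 97.6%. The best annotated match to mt-Cytb, Gm11410 on chromosome 4 (80003989 to 80005131), had 92.9% identity. In the transcripts searched, mt-Atp8 matched only by the 43 bases it shares with mt-Atp6. The chromosome 1 pseudogenes matching mt-Co2 and mt-Atp6 are separated by 233 bases, as are the matched parts of the genes themselves, and the sequence between them was not analysed here.

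The pseudogenes carried almost no counts. The 7 on chromosome 1 had 26 counts over all 6 libraries, 12 of them for Gm28437, the match of mt-Co3, and none for Gm28661 and Gm10925, the matches of mt-Co2 and mt-Atp6. Reads that match both places equally can be dropped or divided in counting, and the labels do not say how they were handled. Side by side, 99.6% of the bases of mt-Co2 and of mt-Atp6 and 99.9% of those of mt-Co3 lay in an exact match of 100 bases to a nuclear transcript, against 48.1% of mt-Co1 and 0% of mt-Cytb. The members with such matches throughout stood at 722 to 2064 CPM per kb, and mt-Cytb and mt-Co1 at 3491 and 3583. mt-Atp8, at 413, had no such match among annotated transcripts. Its bases before the 43 shared ones lie in the 233-base interval (7694 to 7926) between the matched parts of mt-Co2 and mt-Atp6. The chromosome 1 sequence at that place was not analysed, so the value for mt-Atp8 holds for annotated transcripts only. Among the complex I mRNAs, mt-Nd3 (98.3% matched) stood at 175 per kb and mt-Nd4l (98.99%) at 665. mt-Nd4 (63.6%) stood at 1367 and mt-Nd2 (12.4%) at 1441. Those with no such match were mt-Nd6 at 1862, mt-Nd5 at 2294 and mt-Nd1 at 2494. The shares depend on the length of match asked for. With exact matches of 50 bases they were 74.9% for mt-Co1, 24.3% for mt-Nd5 and 17.2% for mt-Nd2, and still 0% for mt-Cytb, mt-Nd6 and mt-Nd1. Of the mRNAs matched nearly in full, mt-Atp6 stood above mt-Nd2 and mt-Nd6, while mt-Co2, mt-Co3, mt-Nd4l and mt-Nd3 stood below both. The part of these copies in the levels was not tested.

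Within complex IV, mt-Co1 exceeded both of its partners in every library. The ratio of mt-Co2 to mt-Co1 per kb was 0.299, 0.313 and 0.281 in Ctrl libraries 1, 2 and 3 and 0.222, 0.216 and 0.315 in FGR libraries 1, 2 and 3. The FGR near copies lay below every other library and FGR library 3 lay above them all, so the groups overlapped. The ratio of mt-Co3 to mt-Co1 was 0.210, 0.196 and 0.192 in Ctrl and 0.184, 0.183 and 0.228 in FGR, with the same 2 extremes. Summed as samples, mt-Co2 per mt-Co1 was 0.292 ± 0.017 in Ctrl and 0.267 ± 0.067 in FGR, and mt-Co3 per mt-Co1 was 0.198 ± 0.010 and 0.206 ± 0.031 (SD, n = 2). The exact two-sided permutation test gave p = 1 for both.

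Within complex V, the 2 reading frames of 1 mRNA did not give equal counts per kb. The ratio of mt-Atp8 to mt-Atp6 was 0.274, 0.343 and 0.224 in Ctrl libraries 1, 2 and 3 and 0.116, 0.0837 and 0.225 in FGR libraries 1, 2 and 3. The third libraries were nearly equal, while in the near copies FGR stood far below Ctrl. As samples the ratio was 0.261 ± 0.052 in Ctrl and 0.165 ± 0.086 in FGR, a difference in log2 of -0.75 with an exact two-sided permutation p of 0.667 (n = 2 per group). Within the sets, FGR over Ctrl was -1.51 on the log2 scale in libraries 1 and 2 and 0.01 in library 3. mt-Atp8 is the shortest member. With its 43 shared bases left out of both lengths and the counts unchanged, its level over the 4 samples was 523 ± 118 CPM per kb. Its range then overlapped that of mt-Co3, 723 ± 99.1, though mt-Co3 stayed higher in all 4 samples. How reads that reach into both ATP synthase genes were counted is not given, and their part in these ratios was not tested.

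Between complexes, cytochrome b varied little against the oxidase mean. The level of mt-Cytb over the mean of the 3 oxidase mRNAs was 1.89 to 2.18 in all 6 libraries, the narrowest spread of the 6 ratios tested. As samples it was 2.02 ± 0.158 in Ctrl and 1.92 ± 0.048 in FGR. Over mt-Co1 alone, a ratio outside those 6, mt-Cytb ran from 0.897 in FGR library 2 to 1.10 in Ctrl library 2. The oxidase mean includes mt-Co2 and mt-Co3, matched nearly in full to nuclear copies, whose part was not tested. ATP synthase mRNA, taken as the mean of mt-Atp6 and mt-Atp8, varied more. Against the oxidase mean it was 0.522, 0.550 and 0.829 in Ctrl libraries 1, 2 and 3 and 0.748, 0.736 and 0.733 in FGR libraries 1, 2 and 3. Here the Ctrl near copies were the lowest and Ctrl library 3 the highest, with the 3 FGR libraries close together between them. The ratio of mt-Cytb to the ATP synthase mean was 4.04, 3.97 and 2.30 in Ctrl and 2.64, 2.61 and 2.57 in FGR, again with FGR inside the Ctrl range. Exact two-sided permutation tests of the complex III to IV, V to IV and III to V ratios gave p = 0.667, 1 and 1. With 2 samples against 2 the test can give no p under 0.333, and over the 6 ratios and the summed share of counts, 7 comparisons, every Benjamini-Hochberg adjusted p was 1.

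**Figure D2:**
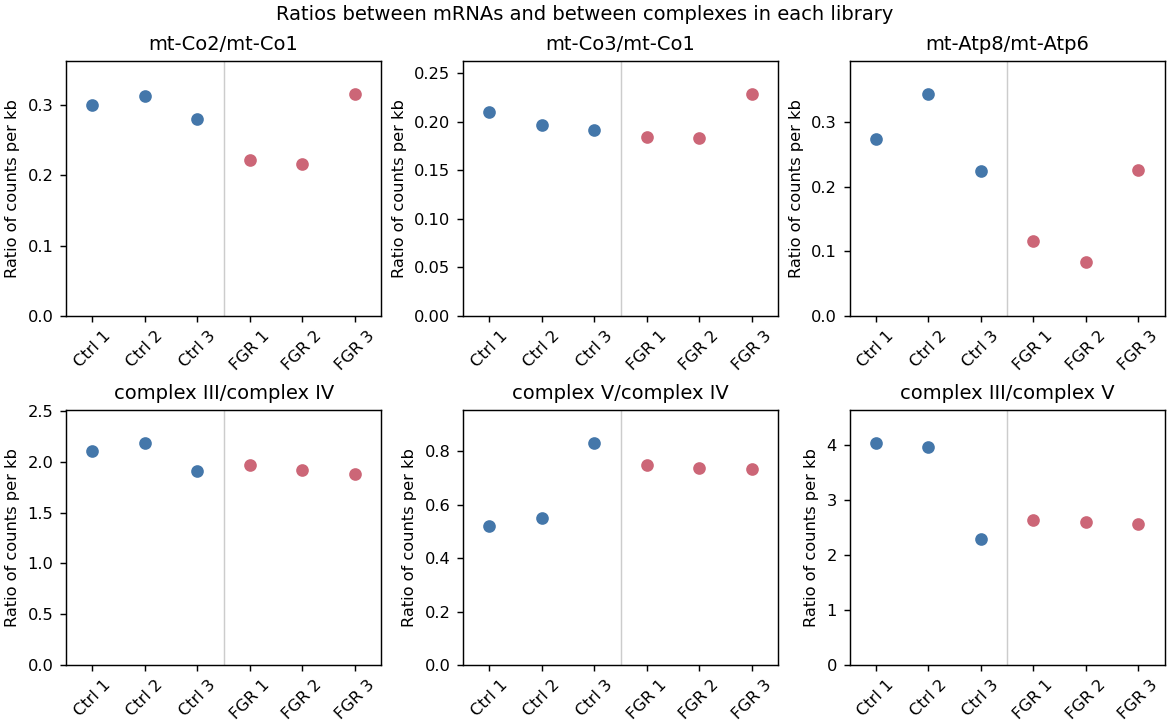
Ratios of counts per kb in each library (vertical axes start at 0), Ctrl in blue and FGR in red; complex IV is the mean of mt-Co1, mt-Co2 and mt-Co3 and complex V that of mt-Atp6 and mt-Atp8. The panels of complex V over IV and III over V show the 3 FGR libraries inside the Ctrl range, and mt-Atp8 to mt-Atp6 is lowest, at 0.116 and 0.0837, in FGR libraries 1 and 2.

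FGR and Ctrl were compared to see whether the levels of these mRNAs differ after restricted growth in the womb. No member passed the test. In edgeR's quasi-likelihood test on the 4 samples, 0 of 24149 features had an adjusted p under 0.05 (0%), and 0 of the 6 members did. The unadjusted p was under 0.05 for 327 features, again with no member. DESeq2 and limma-voom also called 0, and edgeR with the replicate number as a block called 1 feature that was no member. Of the members, 5 had a fitted fold above 1 and 1 below (4 and 2 with library totals as the scale), against 47.6% of all features tested above 1. Their median log2 fold change was 0.20, beside -0.03 over all features. Values in CPM below, given as group means or compared between groups, are scaled by TMM (trimmed mean of M values), and values per library are CPM of library totals. Each of the 6 had the same edgeR adjusted p, 0.99979.

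mt-Cytb, the only mitochondrially encoded subunit of complex III and the one that holds its quinone sites, stood at 4592, 4827 and 3213 CPM in Ctrl libraries 1, 2 and 3 and at 4317, 4463 and 3722 in FGR libraries 1, 2 and 3. The groups overlapped, with the Ctrl group holding both the highest and the lowest library. The scaled level was 3816 ± 613 in Ctrl and 4223 ± 377 in FGR (SD, n = 2), and the log2 fold change 0.15 (SE 0.28). That value was 0.05 without Ctrl library 3, 0.25 without FGR library 3 and 0.03 with library totals as the scale.

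mt-Co1, the catalytic subunit of cytochrome oxidase, stood at 5849, 5935 and 4631 CPM in Ctrl and 6306, 6723 and 5180 in FGR. Each FGR library lay above the Ctrl library of the same number, though FGR library 3 was below Ctrl libraries 1 and 2. Scaled, it was 5110 ± 333 in Ctrl and 6068 ± 794 in FGR, and the log2 fold change was 0.25 (SE 0.28), or 0.39 without FGR library 3 and 0.14 with library totals. mt-Co2, which takes electrons from cytochrome c through its copper centre, stood at 775, 822 and 575 CPM in Ctrl and 619, 643 and 722 in FGR. Its difference ran opposite ways in the 2 sets of libraries: FGR was 0.896-fold Ctrl in libraries 1 and 2 and 1.27-fold in library 3. The log2 fold change was 0.09 (SE 0.28), and it changed sign with library totals as the scale (-0.03), with 6 separate libraries (-0.05) and without FGR library 3 (-0.03). mt-Co3, the third core subunit, stood at 624, 591 and 450 CPM in Ctrl and 590, 625 and 600 in FGR. The FGR libraries lay close together at or near the top of the Ctrl range, and Ctrl library 3 lay apart below. Scaled, it was 515 ± 58.8 in Ctrl and 628 ± 13.2 in FGR, and the log2 fold change was 0.29 (SE 0.28), or 0.17 with library totals.

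mt-Atp6, which forms part of the proton channel of ATP synthase, had the largest fitted difference of the members. It stood at 1063, 1078 and 1358 CPM in Ctrl libraries 1, 2 and 3 and at 1746, 1878 and 1405 in FGR libraries 1, 2 and 3. Every FGR library exceeded every Ctrl library, but the third libraries were close. Its summed samples kept this separation on library totals, where it was the only such member and 7.83% of all tested features were alike, and on the TMM scale, where mt-Co1 and mt-Co3 did the same beside 11% of all features. No member had both FGR samples below both Ctrl samples on either scale, against 17.5% of features on library totals and 13.7% on the TMM scale. Scaled, it was 1200 ± 324 in Ctrl and 1667 ± 246 in FGR, and the log2 fold change was 0.47 (SE 0.30), its 95% interval -0.16 to 1.11. FGR was 1.90-fold Ctrl in libraries 1 and 2 and 1.05-fold in library 3. Leaving out Ctrl library 3 gave a log2 fold change of 0.83 with an edgeR adjusted p of 0.482, and Ctrl was then 1 sample made of near copies.

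mt-Atp8, a small membrane subunit of ATP synthase encoded upstream on the same mRNA, was the only member with a fitted fold below 1. It stood at 87.1, 111 and 91.0 CPM in Ctrl and 60.7, 47.1 and 94.9 in FGR. The FGR near copies were the lowest of the 6 libraries, and FGR library 3 lay within the Ctrl range. These values rest on 84 to 1078 counts per library, and the 95% Wilson interval of FGR library 2 was 38.0 to 58.3 CPM. Scaled, it was 91.2 ± 6.47 in Ctrl and 79.2 ± 30.6 in FGR, and the log2 fold change was -0.19 (SE 0.32), its 95% interval -0.88 to 0.50. It was -0.66 without FGR library 3, -0.06 without Ctrl library 3 and -0.30 with library totals. mt-Atp6 and mt-Atp8 thus differed from Ctrl in opposite directions in FGR libraries 1 and 2, by 0.92 and -0.59 on the log2 scale, and by 0.06 and 0.07 in library 3.

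**Figure D3:**
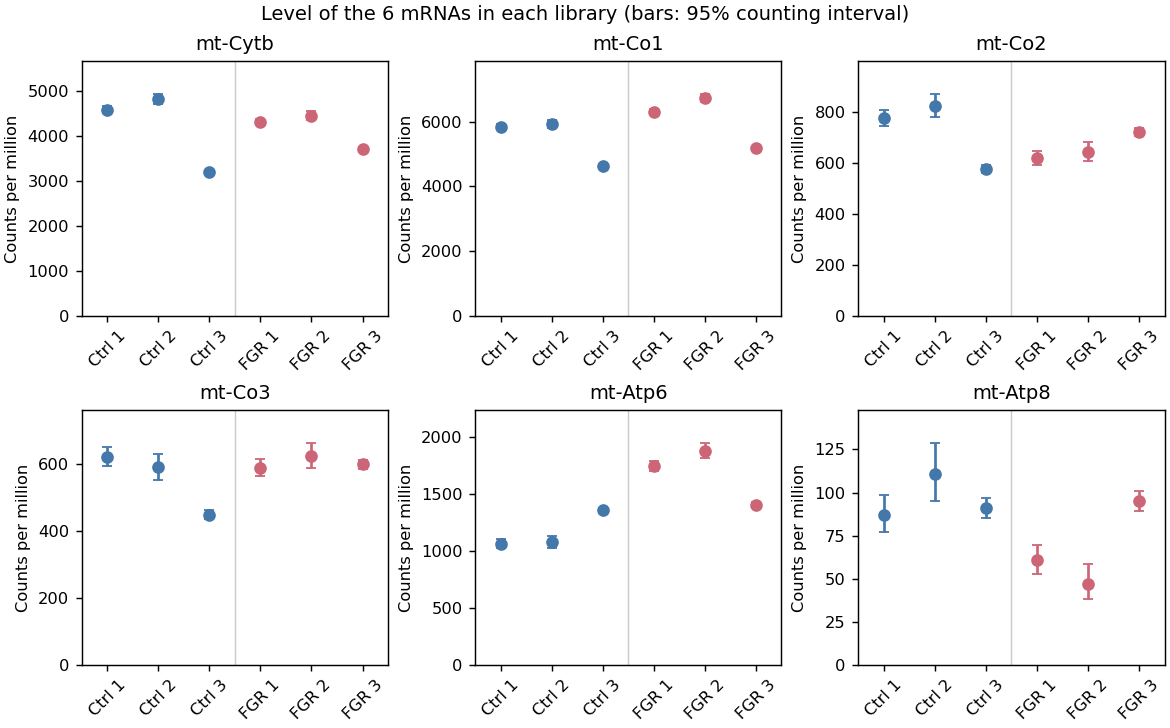
CPM of library totals of each mRNA in each library (vertical axes start at 0), Ctrl in blue and FGR in red, with bars for the 95% counting interval. mt-Atp6 is the panel in which no FGR library falls among the Ctrl libraries, with FGR library 3 at 1405 beside Ctrl library 3 at 1358.

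The 95% intervals of the other log2 fold changes were -0.45 to 0.74 for mt-Cytb, -0.34 to 0.84 for mt-Co1, -0.51 to 0.69 for mt-Co2 and -0.31 to 0.88 for mt-Co3. All of them include 0, and all allow a change of at least 1.5 times upward, so 2 samples a group could not show whether the groups differ by that much. As a group, the members took 1.28% ± 0.154 of all counts in FGR and 1.17% ± 0.198 in Ctrl (exact two-sided permutation p = 0.667, n = 2). In each set FGR was above Ctrl, at 1.39% against 1.31% in libraries 1 and 2 and 1.17% against 1.03% in library 3. The 7 complex I mRNAs had log2 fold changes of 0.07 (mt-Nd3) to 0.21 (mt-Nd5) with a median of 0.13, and none passed the test. With library totals mt-Nd2, mt-Nd3 and mt-Nd4 turned below 0. mt-Nd3 also did so with 6 libraries fitted separately (-0.04), with the replicate block on them (-0.03), with a filter of 10 CPM (-0.02) and without FGR library 3 (-0.17).

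**Figure D4:**
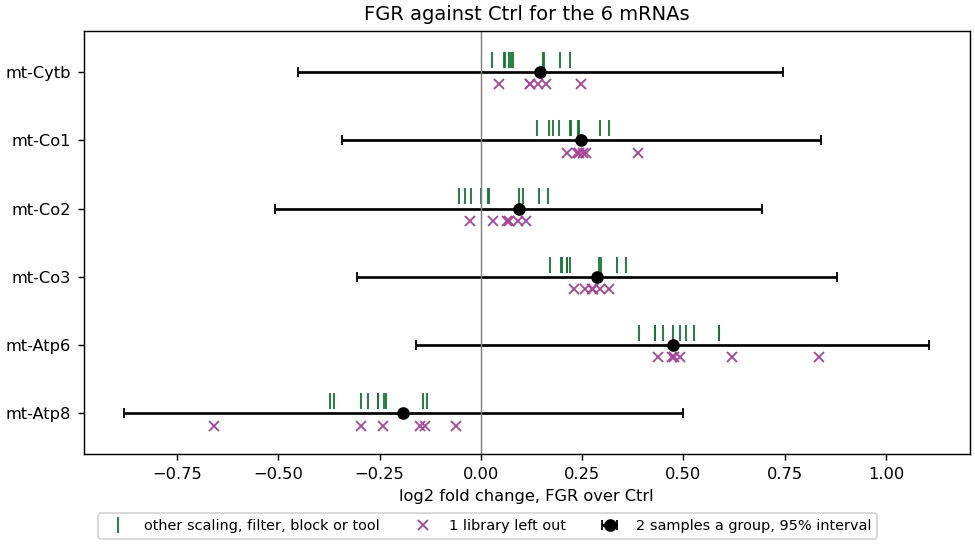
Log2 fold change of FGR over Ctrl from edgeR for each mRNA, with its 95% interval (black), beside the values under other scalings, filters, blocks or tools (green) and with 1 library left out (purple). Every black interval includes 0, and mt-Co2 is the only mRNA whose marks fall on both sides of 0.

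Most nuclear partners of these complexes were counted at far lower levels than the members, and none passed. Their median was 79 counts over all 6 libraries. The highest, the complex V assembly factor Fmc1, had 3419, above the 2725 of mt-Atp8. Over 6 lists of nuclear subunits and assembly factors of complexes III, IV and V, 45 of 68 genes could be tested, 27 had a fitted fold above 1 and 18 below, and 0 were called in either direction. Under these labels 36 of the 68 genes had fewer than 100 counts over all 6 libraries. The complex III subunits had a median log2 fold change of -0.05 over 6 tested genes, with Uqcr11 at 0.87 (SE 0.44) and Uqcrq at 0.27, and Uqcrc2 at -0.38 and Uqcrb at -0.75. The complex IV subunits had a median of 0.19 over 7, with Cox5a, a structural subunit, at 0.95 (SE 0.54), Cox6c at 0.38 and Ndufa4 at -0.42. The complex V subunits had a median of 0.10 over 12, with Atp5d, the delta subunit of the catalytic part, at 0.65 (SE 0.56), Atp5j2 at 0.18, Atp5l at -0.96 and Atp5g1, which encodes the ring subunit c, at -0.73.

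Of the assembly factors, the complex III list had Uqcc1 at 0.26 and Lyrm7 at 0.16, and Uqcc3 at -0.73 and Ttc19 at -0.04, on the log2 scale. The complex V list had Atpaf2 at 0.34, Tmem70 at -0.25 and Fmc1 at -0.01. In the complex IV list Cox14, which takes part in the synthesis of the mt-Co1 protein, was the 1 gene of all 6 lists with an unadjusted p under 0.05 in edgeR; it stood at 0.405 CPM in Ctrl and 1.88 in FGR on 36 counts in all, with an adjusted p of 0.99979. Surf1 was at 0.52, Coa7 at -0.15 and Cox16 at -0.14. Of 20 genes for mitochondrial RNA synthesis, processing and stability, 13 were tested, 6 above 1 and 7 below with a median of -0.13, and none was called. Supv3l1, a helicase of mitochondrial RNA decay, had a log2 fold change of 0.47 (SE 0.30) and Tfam, which packages the DNA and starts its transcription, 0.80 (SE 0.53). Mterf1a had -0.85 (SE 0.48) and Fastkd3 -1.24 (SE 0.84).

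The mean pattern of the 6 members over the 4 samples, as log2 CPM of library totals centred on each gene's mean, was 0.09 in Ctrl libraries 1 and 2, -0.16 in Ctrl library 3, 0.03 in FGR libraries 1 and 2 and 0.04 in FGR library 3. Among 1707 features outside the members with at least 100 CPM, the labels nearest to it by root mean square difference were Rasgrf1 (0.0086), 2810454H06Rik (0.013), Pfkfb3 (0.027), Bmp10 (0.030) and Cyth3 (0.033). None of these 5 is mitochondrial. This is a description over 4 samples, and with so few values many of 1707 features come close to any pattern.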

How the data were processed

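The 6 RNA-seq libraries of hippocampal microglia were assigned to Ctrl or FGR by title, 3 each. Their values are raw counts per Ensembl gene ID, which the authors deposited in 1 table. The submitters' processing notes name build mm10, HTSeq 2.0.3, Bowtie2 2.4.5, Trim Galore 0.6.5, DESeq2 1.32.0 and SAMtools 1.3.1. Settings, annotation, strand and the handling of reads that match several places or genes were not given in the sources used here. Libraries were made with a stranded total RNA kit, per the labels' protocols. Symbols and positions came from GENCODE M21 (GRCm38), which matched 53706 of 54590 IDs. CPM, CPM per kb of annotated gene, ratios and tests were computed here.

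Libraries 1 and 2 of each group were summed. FGR was compared with Ctrl by edgeR 4.0.16 (TMM, filterByExpr, robust quasi-likelihood fit, Benjamini-Hochberg adjustment over all features tested, threshold 0.05), with the SE taken as |log2 fold change| over the root of F. The script was tested on simulated counts set to vary less between samples than these data, so that run does not show how often a change would be found here. Ratios and shares were compared by exact two-sided permutation tests. Matches to nuclear transcripts were found with BLAST+ 2.17.0. Also used were R 4.3.3, limma 3.58.1, DESeq2 1.42.0, Python 3.11.15, scipy 1.17.1, Biopython 1.88, pandas 2.3.3, matplotlib 3.10.9 and numpy 2.4.6. The members, gene lists and tests were chosen with earlier results of these data known. By rule, all members were named, of each nuclear list up to 2 tested genes of smallest p in each direction, and the 5 labels most like the members. P2ry12, Aif1, C1qa, Tyrobp, Tgfbr1, Gad2 and Slc17a7 were named after their values were seen.

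The replicate numbers recur in both groups. Over 9392 features, deviations from the group means correlated at 0.210 for number 1, 0.169 for number 2 and 0.477 for number 3. Number 1 of one group and number 2 of the other correlated alike (0.194 and 0.205), so numbers 1 and 2 were not told apart. Number 3 of one group correlated with numbers 1 and 2 of the other at -0.338 to -0.281. By these values, and by no label, library 3 of both groups stood apart, and it was also the deepest of its group. With the replicate block, and near copies summed, edgeR called 1 feature and no member. Alternatives covered scaling, filters, tools, separate libraries, the replicate block, gene length, denominators and each library left out.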

Additional observations from a re-analysis of the deposited data

How the results depend on the processing

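No member was called under any of the 16 alternatives to the edgeR fit. The replicate block gave 1 called feature with near copies summed and 1 with 6 libraries, against 0 otherwise; neither was a member, and the block changed no other call. With the replicate block on 6 libraries, which counts near copies as separate, mt-Atp6 had a log2 fold change of 0.59 (edgeR adjusted p 0.210). The signs of mt-Cytb, mt-Co1, mt-Co3, mt-Atp6 and mt-Atp8 were the same under all 16. That of mt-Co2 turned with 6 libraries fitted separately (-0.053), the replicate block on them (-0.040), library totals (-0.025) and a filter of 10 CPM in 2 samples (-0.0001), and ranged from -0.027 to 0.11 with 1 library left out, negative without FGR library 3. The log2 difference in mt-Co3 to mt-Co1, 0.05, was -0.011 with 6 separate values and ranged from -0.11 to 0.080 with 1 library left out, negative without library 3 of either group. The other 5 ratios kept their sign under 9 alternatives each. The share of counts in the members, 0.109 percentage points higher in FGR, ranged from -0.031 (without Ctrl library 3) to 0.218 (without FGR library 3). With unshared lengths, 2 neighbouring pairs in the order of levels had ranges apart, against 4. The causes were not tested. Leaving out library 3 of a group leaves 1 sample, assumed to vary like the other group. The spread between the samples limits all 6 members, mt-Atp8 included, whose FGR samples stood at 56.0 CPM (95% counting interval 49.9 to 62.9) and 94.9 (89.4 to 100.7).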

Other observations

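The transfer RNAs beside the members had from 8 to 9068 counts over all 6 libraries, and none of the 7 tested passed the edgeR test between FGR and Ctrl. mt-Tk, which lies 1 base before mt-Atp8, had 1273 counts over all 6 libraries, mt-Td (before mt-Co2) 212, mt-Ts1 (opposite strand, after mt-Co1) 342 and mt-Ty (opposite strand, before mt-Co1) 8. mt-Tg, which follows mt-Co3, had 66, 22 and 479 counts in Ctrl libraries 1, 2 and 3 and 35, 21 and 1958 in FGR libraries 1, 2 and 3, so its log2 fold change of 1.53 (SE 1.23, edgeR adjusted p 0.99979) rests on FGR library 3. mt-Tp, the second transfer RNA after mt-Cytb and on the opposite strand, had the most, 9068, of which 3447 were in Ctrl library 3 and 4687 in FGR library 3.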
